A study of Mus musculus with 2 samples.

Results

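Accessible chromatin was examined at 9 genes of the oncostatin M and interleukin-6 family pathway in mouse heart. They were the receptor genes Osmr, Lifr, Il6st, Il6ra and Il11ra1, the kinase genes Jak1 and Jak2, the transcription factor gene Stat3 and the inhibitor gene Socs3. The peaks described are all those that the deposited table assigns to the Ensembl identifier of each gene, 41 of 58076 peaks. The gene list was drawn up with earlier results of these libraries known, among them the high ratio at the Osmr promoter, so the values below are a description with no test.

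The measurement was ATAC-seq, in which the Tn5 transposase inserts sequencing adapters into open DNA. There was 1 library from Ythdc1 CKO mice, which carry a cardiac-specific deletion of Ythdc1, and 1 library from Ythdc1flox/flox mice, which carry the floxed allele without the deletion (called knockout and control from here). Both came from hearts of animals 15 days of age on normal chow. The labels do not name the Cre line, the strain, the sex or the number of animals behind each library. The knockout library held 6466537 counts in peaks and the control library 6755590. Counts were scaled to the total over all peaks of the table (CPM), a ratio is knockout CPM over control CPM, and each interval is an exact 95% interval that covers counting error only. With 1 library per genotype no difference has a replicate check.

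Cytokines of this family signal through receptor complexes that share gp130, the product of Il6st. In the mouse, oncostatin M acts mainly through gp130 paired with the oncostatin M receptor, and leukemia inhibitory factor through gp130 paired with Lifr, whereas interleukin-6 and interleukin-11 first bind the ligand-specific chains Il6ra and Il11ra1. The receptors activate Jak1 and Jak2, which phosphorylate STAT3, and STAT3 induces Socs3, which in turn blocks the receptor and its kinases. In the heart the pathway is known for its part in the response of cardiomyocytes to injury, and oncostatin M is known to drive loss of the mature sarcomere in mouse cardiomyocytes.

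The promoter windows of the genes with the highest promoter ratios of the receptor and of the feedback arm, and of the Lifr promoter next to Osmr as a contrast, are given first. Each window runs from 250 bases before to 50 bases after the annotated RefSeq start (GRCm38.p6), is written 5′ to 3′ on the gene's strand, and lay inside a peak. Capitals mark matches, on either strand, to a loose AP-1 pattern TGANTCA, the STAT site TTCNNNGAA and the GC box GGGCGG. The loose pattern allows any base at its centre, where the AP-1 consensus has C or G. No marked matches overlap each other in these windows.
Osmr, chr15:6874264-6874563, minus strand: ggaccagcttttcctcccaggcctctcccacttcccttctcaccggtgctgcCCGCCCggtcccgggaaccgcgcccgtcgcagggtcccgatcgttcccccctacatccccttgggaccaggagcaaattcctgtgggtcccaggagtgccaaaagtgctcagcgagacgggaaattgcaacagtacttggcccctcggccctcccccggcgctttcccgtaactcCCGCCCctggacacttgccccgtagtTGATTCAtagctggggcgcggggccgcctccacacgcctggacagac
Lifr, chr15:7129322-7129621, plus strand: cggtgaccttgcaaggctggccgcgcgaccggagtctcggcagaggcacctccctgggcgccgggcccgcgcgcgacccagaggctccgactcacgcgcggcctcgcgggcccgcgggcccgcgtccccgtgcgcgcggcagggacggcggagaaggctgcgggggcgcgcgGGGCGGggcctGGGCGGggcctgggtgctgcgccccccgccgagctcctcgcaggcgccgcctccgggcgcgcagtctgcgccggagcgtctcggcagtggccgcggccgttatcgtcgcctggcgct
Socs3, chr11:117969317-117969616, minus strand: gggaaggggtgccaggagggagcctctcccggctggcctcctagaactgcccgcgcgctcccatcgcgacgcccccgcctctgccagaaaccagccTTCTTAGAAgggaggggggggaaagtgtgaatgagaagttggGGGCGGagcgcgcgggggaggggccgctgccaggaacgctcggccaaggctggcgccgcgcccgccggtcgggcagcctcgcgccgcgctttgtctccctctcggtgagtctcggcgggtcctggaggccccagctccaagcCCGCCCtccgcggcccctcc
The Osmr window held a match to the loose AP-1 pattern, TGATTCA, 3 bases after the start, and 2 GC boxes. The centre base of TGATTCA is T, so it does not match the AP-1 consensus. The Socs3 window held a STAT match, TTCTTAGAA, beginning 154 bases before the start. Among all 32851 RefSeq windows of this length, 7.81% held a match to the loose AP-1 pattern, 8.30% a STAT match and 35.7% a GC box. Of the 11 windows of the 9 genes, these 2 were the only ones with a loose AP-1 or a STAT match. The Osmr and Lifr windows differed in composition, with 66% G or C and 22 CpG dinucleotides at Osmr and 81.3% and 53 at Lifr, against a median of 52.7% and 7 over all windows. A match of letters is not evidence that a factor binds.

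Osmr, which encodes the oncostatin M receptor chain, had the highest ratio of the 41 peaks at its promoter. This peak on chromosome 15 from 6873642 to 6874677 covers an annotated start of the gene (ENSMUSG00000022146), at 6874313 in RefSeq. The first annotated start, at 6874969, lies upstream of the peak. The peak held 441 counts in the knockout and 204 in the control, a ratio of 2.26 (1.91 to 2.68) and a log2 ratio of 1.17. Per kb of peak the level was 65.9 CPM in the knockout and 29.2 CPM in the control. The control value was the lowest of the 9 strongest promoter peaks, stronger than 32.8% of all promoter peaks, and the knockout value lay among those of the other 8 genes. Only 330 of 19366 promoter peaks (1.70%) had a ratio as high or higher. The peak was called in both libraries. On the authors' RPM scale, which is relative to the whole library, its ratio was 1.999, just under the 2-fold rule used below. In bulk tissue, more cells with an open promoter and a more open promoter per cell cannot be told apart.

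The rest of the Osmr locus was less different. Within the first intron, the peak from 6861607 to 6862079 held 202 counts in the knockout and 172 in the control (ratio 1.23, 0.996 to 1.51). That peak lies 12178 bases after the annotated start nearest to it. Beside that peak, the peak from 6864697 to 6864918 held 67 counts in the knockout and 39 in the control (1.79, 1.19 to 2.74), and was called in the knockout alone. The third intron had 46 counts in the knockout and 39 in the control, and the seventh intron 23 in the knockout and 34 in the control. Both of these weak intron peaks were called in the control alone, although the third-intron peak had more counts in the knockout.

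Upstream of Osmr there were 3 peaks. The peak 8230 bases before the start nearest to it in the table, as for other peak distances given in bases, had 30 counts in the knockout and 48 in the control, a ratio of 0.653 (0.399 to 1.05). The peak at 34729 bases had 139 counts in the knockout and 121 in the control (1.20, 0.934 to 1.54), and that at 59668 bases had 42 in the knockout and 25 in the control (1.76, 1.05 to 3.005). In sum, 6 of the 8 Osmr peaks had log2 ratios above 0 and 2 below, against 45.9% of all peaks above 0. The 7 peaks other than the promoter together held 549 counts in the knockout and 478 in the control, a ratio of 1.20 (1.06 to 1.36). That is closer to parity than the promoter.

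**Figure D1:**
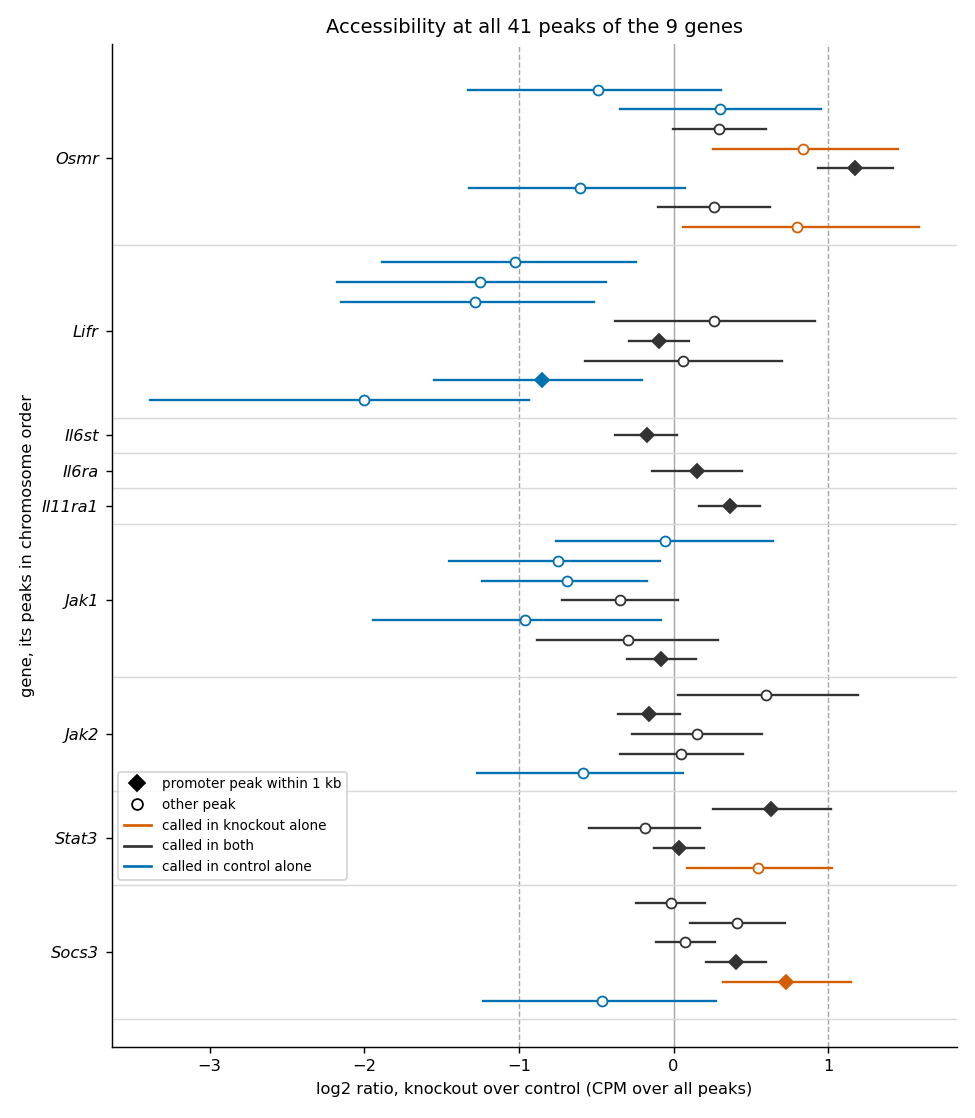
The log2 ratio of knockout over control (horizontal axis) is shown for each of the 41 peaks, grouped by gene, with exact 95% counting intervals as lines. Filled diamonds are promoter peaks within 1 kb of a start and open circles other peaks; orange peaks were called in the knockout alone, black in both and blue in the control alone. The Osmr promoter at 1.17 is the only point right of the dashed 2-fold line, and 4 Lifr peaks lie left of the other.

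Lifr, the receptor gene for leukemia inhibitory factor, lies next to Osmr on chromosome 15, with 255 kb between their starts. Its main promoter peak (7128893 to 7130057, ENSMUSG00000054263) held 414 counts in the knockout and 461 in the control, a ratio of 0.938 (0.820 to 1.07). The largest differences at Lifr were at weak peaks away from that promoter. An intron peak from 7159028 to 7159227 held 8 counts in the knockout and 35 in the control, the lowest ratio of the 41 peaks at 0.239 (0.0957 to 0.524).

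Upstream of Lifr, 3 distal peaks were also at least 2-fold lower in the knockout. They lie before the first annotated start of the gene, at 7090614, which is itself upstream of the main promoter. The peak centred 44.3 kb before the start at the main promoter held 19 counts in the knockout and 49 in the control (0.405, 0.225 to 0.701). At 54.2 kb there were 17 counts in the knockout and 43 in the control (0.413, 0.221 to 0.739), and at 68.8 kb 20 in the knockout and 43 in the control (0.486, 0.271 to 0.844). These 4 peaks and a second, internal promoter peak (30 counts in the knockout and 57 in the control, ratio 0.550, 0.341 to 0.870) were all called in the control alone. Such peaks were chosen by the peak caller for a high count in the control, and 28.9% of all 16885 peaks called in the control alone were at least 2-fold lower in the knockout. Together these 5 peaks held 94 counts in the knockout and 227 in the control, a ratio of 0.433 (0.336 to 0.553), beside 0.637 for the summed counts of all peaks called in the control alone. That interval leaves out the spread among peaks of the class and the choice by calling. It is therefore no test against 0.637. The 3 Lifr peaks called in both libraries had ratios of 0.938, 1.04 and 1.20, each with an interval that holds 1.

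The interval from Osmr to Lifr held 18 peaks, of which 8 were assigned to each gene and 2 to other identifiers. Of those 2, the first lies within Lifr, in intron 18 of 19, and is assigned by the table to the neighbouring identifier ENSMUSG00000042961. It held 52 counts in the knockout and 126 in the control, a ratio of 0.431 (0.306 to 0.600), and was the second strongest peak of the Lifr side in the control. The other lies between the genes and held 18 counts in the knockout and 44 in the control. With both included, 8 of the 10 peaks on the Lifr side had log2 ratios below 0 and 6 were at least 2-fold lower, all 6 called in the control alone, against 54.1% of all peaks below 0, 8.96% at least 2-fold lower, and 28.9% at least 2-fold lower among those called in the control alone. On the Osmr side 6 of 8 lay above 0, against 45.9% of all peaks. No peak was listed between 60.5 and 157 kb from the Osmr start.

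**Figure D2:**
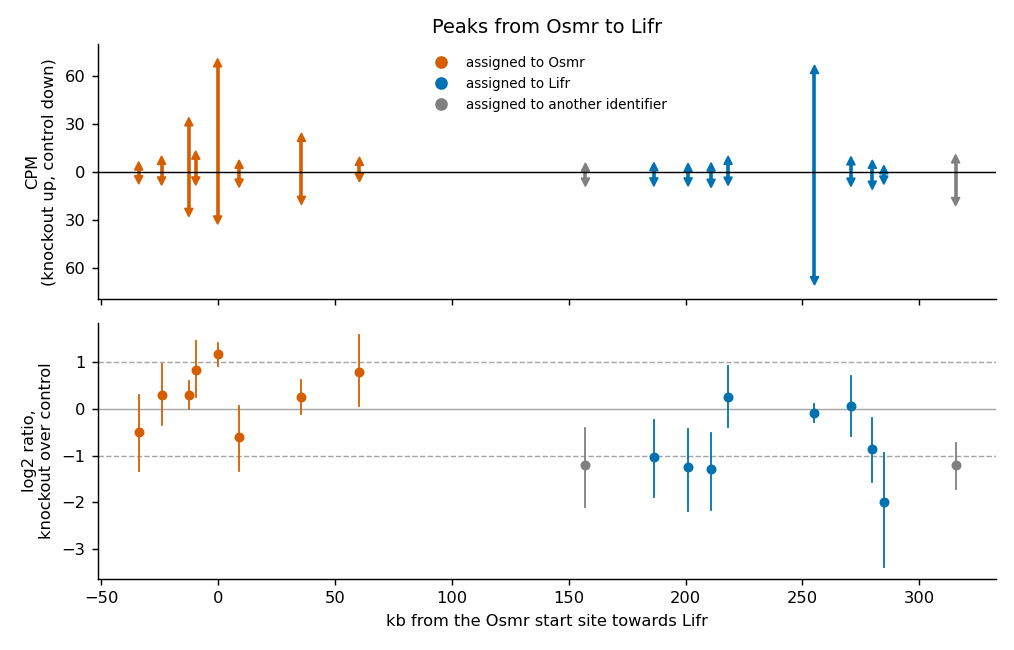
Peaks from Osmr to Lifr by distance in kb from the Osmr start. The upper panel gives CPM, with the knockout above the line and the control below it, and the lower panel the log2 ratio with exact 95% counting intervals and dashed lines at 2-fold; orange peaks are assigned to Osmr, blue to Lifr and grey to another identifier. Of the 8 peaks on the left, 6 lie above 0, and of the 10 on the right 8 lie below 0, against 45.9% of all peaks above 0 and 54.1% below, while the strong Lifr promoter stays near 0.

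The other receptor chains had 1 assigned peak each, at the promoter and called in both libraries. Il6st, the shared gp130 gene, held 379 counts in the knockout and 447 in the control at chromosome 13 from 112463573 to 112464625 (ENSMUSG00000021756), a ratio of 0.886 (0.770 to 1.02). Il6ra, the interleukin-6 binding chain, held 206 counts in the knockout and 194 in the control at chromosome 3 from 89912686 to 89913466 (ENSMUSG00000027947), a ratio of 1.11 (0.907 to 1.36). Neither interval excludes 1.

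Il11ra1, the interleukin-11 binding chain, held 480 counts in the knockout and 390 in the control at chromosome 4 from 41760108 to 41761066 (ENSMUSG00000073889), a ratio of 1.29 (1.12 to 1.47). Mice carry a closely similar gene, Il11ra2, on the same chromosome, and nothing used here says how reads that match both were handled. Of all promoter peaks, 15.2% had a ratio as high as that of Il11ra1 or higher. Its difference was well short of that at Osmr.

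Il6ra had further peaks inside its span that the table assigns to other identifiers, 4 of them to ENSMUSG00000105941, which overlaps its start. In the first intron, the peak from 89899049 to 89899502 held 94 counts in the knockout and 32 in the control, a ratio of 3.07 (2.04 to 4.74), higher than at any of the 41 assigned peaks. It was called in the knockout alone, a class in which 35.3% of all peaks passed the 2-fold rule in that direction. Nearer the start of the gene, the peak from 89911234 went the other way, with 34 counts in the knockout and 67 in the control (0.530, 0.340 to 0.813). It was called in the control alone. Nearer still, the peak from 89912359 held 46 counts in the knockout and 27 in the control (1.78, 1.08 to 2.98), called in the knockout alone. The peaks from 89890066 and 89869731, both called in the control alone, had ratios of 0.746 (0.428 to 1.28) and 0.572 (0.328 to 0.973). These peaks were not among the members, and they show that the count of peaks per gene depends on how the table assigns them.

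Jak1, the kinase gene most closely tied to gp130 signalling, had log2 ratios below 0 at all 7 of its peaks, with none past 2-fold. The promoter peak on chromosome 4 from 101264525 to 101265528 (ENSMUSG00000028530) held 321 counts in the knockout and 354 in the control, a ratio of 0.947 (0.812 to 1.10). The other 6 peaks together held 283 counts in the knockout and 408 in the control, a ratio of 0.725 (0.620 to 0.845). The lowest was a peak of the first intron with 16 counts in the knockout and 33 in the control (0.507, 0.260 to 0.947). Of the 7 peaks, 4 were called in the control alone, a class with a median log2 ratio of -0.67 over all its peaks. The 3 called in both libraries had ratios of 0.947, 0.815 and 0.787, and of all peaks 54.1% lay below 0. The weak peak with the ratio nearest parity, 0.962, lies beyond the gene, in the last intron of the neighbouring ENSMUSG00000035275. A further 2 peaks of the first intron of Jak1, assigned to ENSMUSG00000082928, had 84 and 47 counts in the knockout and 101 and 57 in the control.

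Jak2, the other Janus kinase of the complex, was mixed. Its promoter on chromosome 19 from 29251110 to 29251992 (ENSMUSG00000024789) held 384 counts in the knockout and 447 in the control, a ratio of 0.897 (0.781 to 1.03). A peak 9768 bases upstream held 64 counts in the knockout and 44 in the control (1.52, 1.02 to 2.28), and a peak at the third exon 33 in the knockout and 52 in the control (0.663, 0.415 to 1.05). Over its 5 peaks the sum was 690 in the knockout and 747 in the control, a ratio of 0.965 (0.869 to 1.07). An intron 12 peak assigned to another identifier held 38 counts in the knockout and 20 in the control and was called in the knockout alone.

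Stat3, the transcription factor that carries the signal to the nucleus, had the strongest promoter per length of the 9 genes. That peak on chromosome 11 from 100939100 to 100939997 (ENSMUSG00000004040) held 619 counts in the knockout and 630 in the control, and per kb 107 CPM in the knockout and 104 CPM in the control. The ratio was 1.03 (0.917 to 1.15). A second promoter peak, from 100893230 to 100893827 at the start of a short annotated transcript near the far end of the gene, held 147 counts in the knockout and 99 in the control, a ratio of 1.55 (1.19 to 2.02). The distal peak 12344 bases upstream held 94 counts in the knockout and 67 in the control (1.47, 1.06 to 2.04) and was called in the knockout alone. A first-intron peak called in both libraries held 121 counts in the knockout and 144 in the control (0.878, 0.684 to 1.13). Over its 4 peaks the sum was 981 in the knockout and 940 in the control, a ratio of 1.09 (0.996 to 1.19).

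Socs3, the feedback inhibitor induced by STAT3, had its higher values around the start of the gene. The promoter peak on chromosome 11 from 117968660 to 117969756 (ENSMUSG00000053113) held 498 counts in the knockout and 393 in the control, a ratio of 1.32 (1.16 to 1.51). The next peak, from 117969876 to 117970216, held 130 counts in the knockout and 82 in the control (1.66, 1.25 to 2.21) and was called in the knockout alone. A peak 6619 bases from the start on the far side of the gene held 205 counts in the knockout and 161 in the control (1.33, 1.08 to 1.65). The strong peaks at 5287 and 19060 bases were near parity, with 459 and 323 counts in the knockout and 455 and 342 in the control. Over all 6 peaks the sum was 1642 in the knockout and 1472 in the control, a ratio of 1.17 (1.09 to 1.25).

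**Figure D3:**
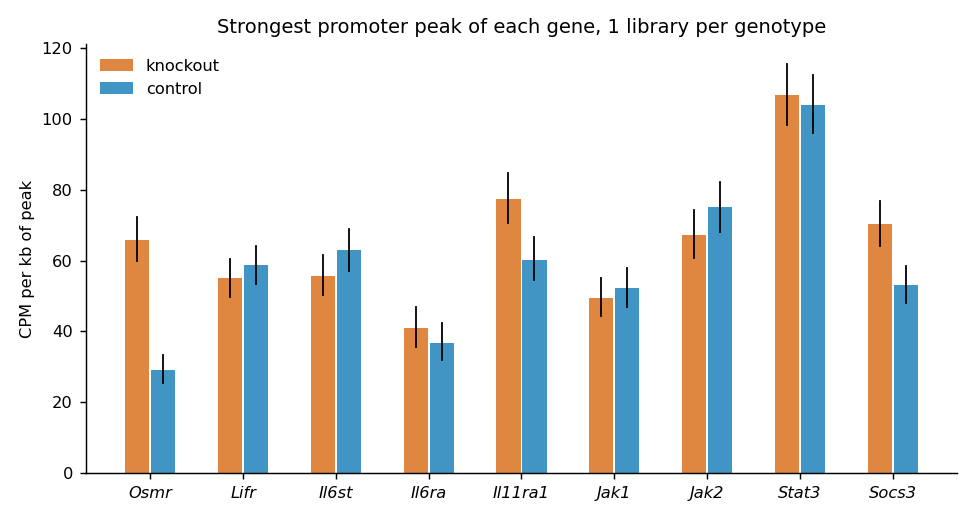
CPM per kb of peak at the strongest promoter peak of each gene, with the knockout (orange) left of the control (blue) and exact 95% Poisson counting intervals as lines. Osmr stands at 65.9 in the knockout and 29.2 in the control; Socs3 and Il11ra1 are the other pairs whose ratio interval lies above 1.

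By promoter ratio the genes ranked Osmr (2.26), Socs3 (1.32), Il11ra1 (1.29), Il6ra (1.11), Stat3 (1.03), Jak1 (0.947), Lifr (0.938), Jak2 (0.897) and Il6st (0.886). Neighbours below Osmr had overlapping intervals. The RPM scale moves the median log2 ratio of all peaks by -0.17, and on it the Il6ra and Stat3 promoters lay below 0, at -0.02 and -0.13. Directions are therefore relative to the peaks as a whole.

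Taken over all 41 peaks, the pathway was close to the background. At least 2-fold higher in the knockout was 1 peak (2.44%), against 6.09% of all peaks, and at least 2-fold lower were 4 (9.76%), against 8.96%. The median log2 ratio was -0.02, against -0.05 over all peaks, with 20 peaks above 0 and 21 below. Calling divided the peaks by direction. Of the 14 called in the control alone, 13 lay below 0 and 4 were at least 2-fold lower (28.6%, against 28.9% of all such peaks), and 0 were that much higher, against 0.0118%. Their median log2 ratio was -0.72, against -0.67 over all peaks of that class, so values below 0 are usual there. The 4 called in the knockout alone, at Osmr (2), Stat3 and Socs3, all lay above 0 and none reached 2-fold, against 35.3% of all such peaks. Their median log2 ratio was 0.76, against 0.81 over all peaks of that class, where values above 0 are likewise usual. Among the 23 called in both, the Osmr promoter was the only peak past 2-fold in either direction, in a class where the 2-fold rule took in 0.851% of all peaks as higher and 1.02% as lower. At promoters within 1 kb, 1 of 12 was at least 2-fold higher and 0 were lower, against 2.7% and 2.87%. Of the 29 other peaks 0 were higher by that rule and 4 (13.8%) lower, against 7.79% and 12% of all peaks outside promoters.

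**Figure D4:**
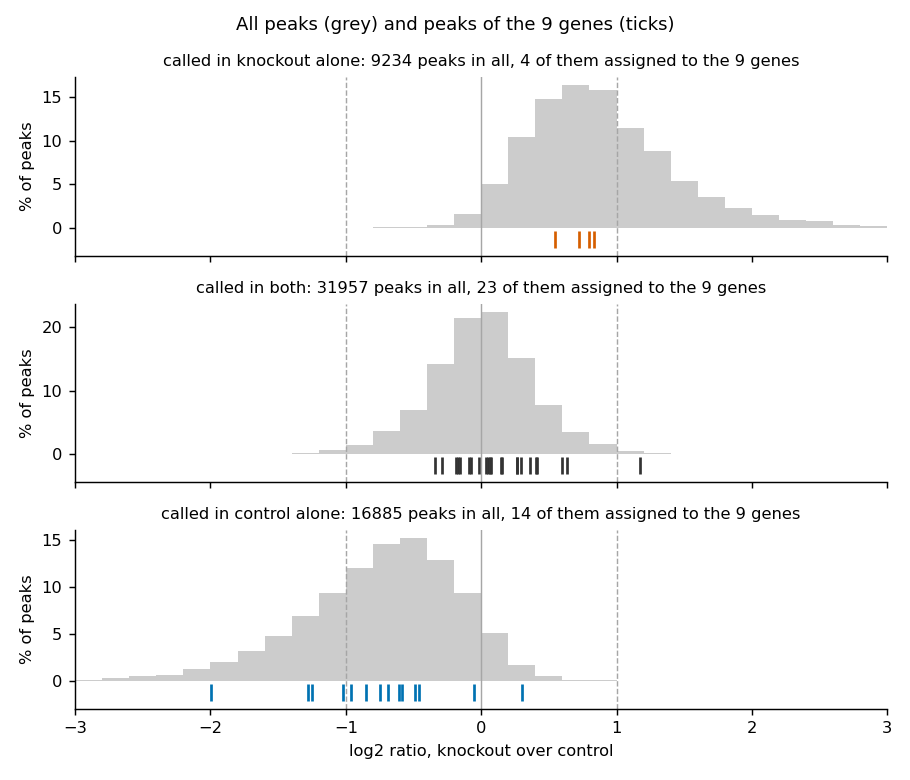
Distribution of log2 ratios of all peaks (grey bars, % of peaks in each class) and of the 41 peaks of the 9 genes (ticks below), split by the library in which the authors called the peak: knockout alone, both, and control alone. The Osmr promoter, at 1.17 in the middle panel, is the tick outside the dashed 2-fold lines among peaks called in both; the ticks of the other panels lie within the spread of their class.

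Of 56 other genes of the pathway, 48 were matched to an identifier of the table and 44 had a promoter peak, the strongest of which was taken for each gene. Their median log2 ratio was 0.02, against -0.02 over all promoter peaks, with 23 above 0 and 21 below, against 47.6% of all promoter peaks above 0 and 52.4% below. At least 2-fold higher in the knockout were 3 (6.82%, against 2.7% of all promoter peaks) and at least 2-fold lower was 1 (2.27%, against 2.87%). All 4 were called in a single library, which selects for such a difference. Over all 149 peaks of these genes, 9 were at least 2-fold higher (6.04%) and 5 lower (3.36%), against 6.09% and 8.96% of all peaks.

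Among ligands, Il11, a cytokine gene linked to cardiac fibrosis, held 61 counts in the knockout and 31 in the control at its promoter (2.06, 1.31 to 3.28), called in the knockout alone. Clcf1 and Lif were also above 0, at 1.60 (1.03 to 2.50) and 1.35 (0.924 to 1.99), and Il6 was below, at 0.801 (0.590 to 1.08), with 79 counts in the knockout and 103 in the control. Osm itself, the ligand of Osmr, was matched to no identifier, and no listed peak overlaps its RefSeq span. Of the other kinases, Jak3 had a promoter ratio of 0.977 (0.773 to 1.23) and Tyk2 one of 0.922 (0.774 to 1.10). Of the other STAT genes, Stat6 (1.28, 1.11 to 1.47) and Stat5a (1.08, 0.917 to 1.27) were the highest, and Stat5b had a ratio of 0.953 (0.782 to 1.16). Of the 3 receptor partners matched only Il27ra had a promoter peak, with a ratio of 0.976.

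Inhibitor and phosphatase genes had 5 of 13 promoters above 0 and 8 below, against 47.6% and 52.4% of all promoter peaks. None was past 2-fold, against 2.7% higher and 2.87% lower of all promoter peaks. The highest were Socs2 (1.10, 0.951 to 1.26) and Ptpn1 (1.08, 0.923 to 1.27), and the lowest Ptpn6 (0.727, 0.448 to 1.17) and Socs5, which held 288 counts in the knockout and 407 in the control (0.739, 0.633 to 0.862). Socs1, a paralogue of Socs3, held 540 counts in the knockout and 675 in the control (0.836, 0.745 to 0.937), on the other side of parity from Socs3.

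Known targets of STAT3 had 12 of 19 promoters above 0 and 7 below, against 47.6% and 52.4% of all promoter peaks, with a median log2 ratio of 0.11, against -0.02 over all promoter peaks. Serpina3n, an acute-phase protease inhibitor gene, held 27 counts in the knockout and 10 in the control (2.82, 1.32 to 6.53), and Timp1, an inhibitor of matrix proteases, 58 in the knockout and 28 in the control (2.16, 1.36 to 3.53). Both were called in the knockout alone. Icam1, an adhesion molecule gene, held 58 in the knockout and 122 in the control (0.497, 0.357 to 0.684), called in the control alone. The ratio interval lay above 1 at 7 of the 19 targets, below 1 at 2 and held 1 at 10. The share of all promoter peaks with such intervals was not computed, so these counts have no background. Those below 1 were Icam1 and Pim1, which held 608 in the knockout and 728 in the control (0.872, 0.782 to 0.973). Mt2, a metallothionein gene, held 144 in the knockout and 87 in the control (1.73, 1.32 to 2.28) and was called in both libraries. Among those whose interval held 1 were Cebpb at 1.02, Bcl6 at 0.997 and Vegfa at 0.984.

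**Figure D5:**
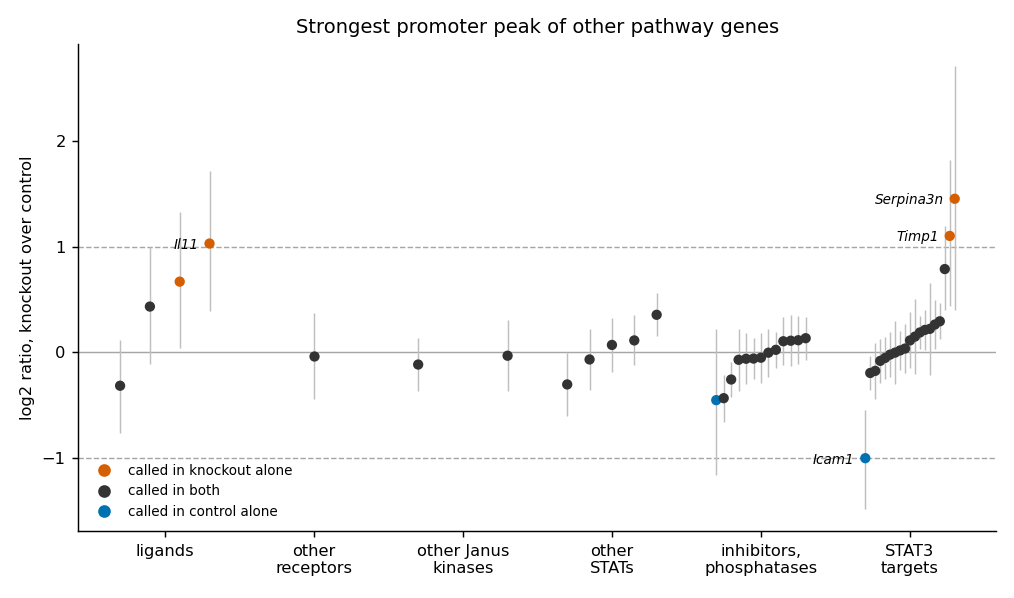
The log2 ratio of knockout over control at the strongest promoter peak of 44 other pathway genes, by role, with exact 95% counting intervals and dashed lines at 2-fold; colours give the library in which the peak was called. Serpina3n, Timp1 and Il11 lie above the upper line and Icam1 just below the lower one.

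The labelled tissue and its cell types were checked at promoters. Of 8 cardiomyocyte markers 7 were matched to an identifier, each with a promoter peak, with summed levels of 324 CPM in the knockout and 351 CPM in the control and log2 ratios from -0.54 to 0.20. Of these 7, 5 lay below 0 and 2 above, with a median log2 ratio of -0.30, against -0.02 over all promoter peaks. The ratio interval lay below 1 at 4 of them and held 1 at 3. The share of all promoter peaks with such intervals was not computed, so this count has no background. Myl2 was not matched, but 2 peaks within 1 kb of its RefSeq starts held 287 counts in the knockout and 492 in the control. Fibroblast markers summed to 110 CPM in the knockout and 90.0 CPM in the control (6 of 7 with a peak, 3 of them above 0 and 3 below, median log2 ratio 0.05). Endothelial markers summed to 143 CPM in the knockout and 122 CPM in the control (6 of 6, 4 above 0 and 2 below, median 0.20). Mural markers summed to 77.3 CPM in the knockout and 55.2 CPM in the control (4 of 6, all 4 above 0, median 0.36). The ratio interval lay above 1 at 2 fibroblast, 1 endothelial and 2 mural promoters and below 1 at 0 of each, likewise with no background. None of these 23 promoters was past 2-fold, against 2.7% higher and 2.87% lower of all promoter peaks. Of 6 myeloid markers 3 were matched and of 4 hepatocyte markers 2, and none of these had a promoter peak. The unmatched myeloid and hepatocyte markers had no listed peak within 1 kb of a RefSeq start. Osmr is also expressed by fibroblasts and endothelial cells. The part of these shifts in the Osmr value was not tested.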

How the data were processed

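Chromatin accessibility was profiled by ATAC-seq in 1 knockout and 1 control heart library, grouped by the genotype label. BWA, MACS2 and the build GRCm38.p6 are listed in the submitters' processing notes. Read filters, the Tn5 shift and the unit counted (reads, fragments or cuts) are not stated there. The authors deposited whole-number counts per merged peak, not normalized; RPM values, which equal (count + 1) times 1 constant per library; a fold enrichment ratio, per the file headers; and a log2 fold change that equals the log2 ratio of the deposited RPM values in each row.

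The median peak held 60 counts in the knockout and 65 in the control. CPM was computed over all 58076 peaks. Log2 ratios used 0.5 added counts per library, and ratios none. A difference of at least 2-fold is a rule of size, and the intervals are Clopper-Pearson at 95%. Symbols were matched to identifiers by span, strand and start site in the RefSeq table of the same build; all 9 identifiers overlapped their RefSeq span by at least 89.3% and carried a fitting gene ontology term. Of 56 other pathway genes, 48 had an identifier. Peak coordinates are as deposited.

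The 9 genes, the pathway list, the markers, the motifs and the tests were chosen with earlier results of these data known. All 9 genes were to be named with their promoter, every peak past 2-fold and the strongest peak, and every Osmr peak. Of the other pathway genes, those past 2-fold at the promoter or else the extremes of each role were named. The value of 1 pathway gene that this rule names is not reported here. The other ligands, Mt2, Pim1, values near parity, Socs1 and peaks assigned to other identifiers were picked after their values were seen. Scripts were tested on simulated counts drawn with counting error alone. That test covers neither variation between libraries nor the choice by peak calling. Python 3.11.15, pandas 2.3.3, scipy 1.17.1, R 4.3.3 and edgeR 4.0.16 (for TMM factors) were used.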

Additional observations from a re-analysis of the deposited data

How the results depend on the processing

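With the authors' RPM scale, the 2-fold rule took in 0 member peaks as higher and 6 as lower (4.005% and 12.3% of all peaks), and the medians of member peaks, member promoters and pathway promoters were -0.19, -0.079 and -0.15, with 1 pathway promoter higher. With TMM and with median centring the member medians were 0.033 and 0.032 and the pathway medians 0.0714 and 0.0710, and 0 pathway promoters were lower. With a loess trend removed, 2 member peaks were higher and 2 lower (8.84% and 5.07% of all peaks), and 0 pathway promoters lower. A pseudocount of 5 left 1 pathway promoter higher and 0 lower. The upper part of mean signal held 0 lower member peaks of 22 and a median of 0.11, with no background computed. Peaks called in both libraries held 0 lower of 23 and a median of 0.076, against 1.02% and 0.009 over all such peaks. A fold enrichment of at least 10 left 1 lower of 27 and a median of 0.050, again with no background computed. The 1.5-fold rule gave 6 higher (14.4% of all peaks) and 10 lower (20.0%). Peaks overlapping each gene or the 5 kb before it numbered 38, with 2 higher, 2 lower and a median of -0.12. No background was computed for that set. Each of these shifts follows from the changed scale, threshold or set of peaks.

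The 108 alternative values of single genes stayed within their counting interval in 98 cases. That count is no measure of stability. TMM and median centring shift every value by about 0.05, less than the half-width of any of these intervals, so they could move none. For Il6st, Il6ra and Il11ra1, with 1 peak each, the summed values under changed scales repeat the promoter values. Of the 10 that moved beyond it, 7 were on the RPM scale. The sign changed in 6 cases, 4 of them on the RPM scale. The Osmr promoter log2 ratio of 1.17 ranged from 0.999 on the RPM scale to 1.23 with TMM. All 5 alternatives run for it are small changes of scale that could not change its sign. Its staying positive is therefore no check. The summed Lifr log2 ratio of -0.31 was -0.05 among peaks called in both libraries. No paired analysis was possible because each genotype has 1 library, and no replicate could be left out. Weak peaks, with 35 to 57 control counts at those Lifr peaks called in the control alone, limit single ratios.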
